A study of Mus musculus with 11 samples.

Results

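The genes described here encode the oxidative phosphorylation machinery of the mitochondrion, measured in mouse liver. Members were all rows of the array whose platform gene symbol begins with Ndufa, Ndufb, Ndufc, Ndufs, Ndufv, Uqcr, Cox4, Cox5, Cox6, Cox7, Cox8 or Atp5, or is Sdha, Sdhb, Sdhc, Sdhd, Cyc1 or Cycs. This gave 99 of 17280 rows and 79 of the 13406 symbols on the array. By their names 70 of the 79 are subunits or cytochrome c. The other 9 share only the spelling: 7 assembly factors of complex I (Ndufaf1 to Ndufaf7), the supercomplex factor Cox7a2l and the pseudogene Ndufs5-ps.

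Each array carried liver RNA of 1 mouse, described in the labels as C57/BL/6J, labelled with Cy5 against a universal mouse reference RNA labelled with Cy3. The control diet, given for 10 weeks, was chow of 6.5% fat. The high-fat group was fed 42.16% fat over the same time, and the fasted group received that high-fat diet but no food in the final 48 h. The fast was therefore applied only to mice already on the high-fat diet, and no chow-fed mouse was fasted. Arrays were available for 4 of 9 control, 4 of 5 high-fat and 3 of 4 fasted mice, and sources used here give no sex or age. Of these 11 arrays 10 were used, without high-fat array 4. Values are log2 ratios, liver over reference, with each array's median set to 0; the reference cancels in any change between groups. In whole liver, fewer cells of a type and less RNA per cell cannot be told apart.

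The respiratory chain passes electrons from NADH through complex I (NADH dehydrogenase) and from succinate through complex II (succinate dehydrogenase) to ubiquinone. Complex III (the cytochrome bc1 complex) hands them to cytochrome c, and complex IV (cytochrome c oxidase) to oxygen. Complexes I, III and IV pump protons, and complex V (ATP synthase) uses the returning protons to make ATP. The hepatocyte depends on this chain both to burn fatty acids and to supply ATP for gluconeogenesis in a fast. All members here lie in the nuclear genome, and apart from the pseudogene Ndufs5-ps their proteins are imported into mitochondria.

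Most members could not be compared, because the deposited table is empty for most of its cells. A value was present on at least 1 of the 10 arrays for 53 of the 79 genes and on none for 26. The 26 include the complex I core subunits Ndufs1, Ndufv1 and Ndufv2, the iron-sulfur subunits Sdhb of complex II and Uqcrfs1 of complex III, and the complex IV subunits Cox6b1, Cox7a2, Cox7c and Cox8a. At least 2 values in every group, the requirement for a test, were reached by 21 members, 26.6% of the 79, against 23.6% of all symbols. These were 10 of 38 genes named for complex I, 2 of 4 for complex II, 1 of 6 for complex III, cytochrome c itself, 2 of 16 for complex IV and 5 of 14 for complex V. Of the 21, 19 are subunits and 2 are the assembly factors Ndufaf5 and Ndufaf7.

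**Figure D1:**
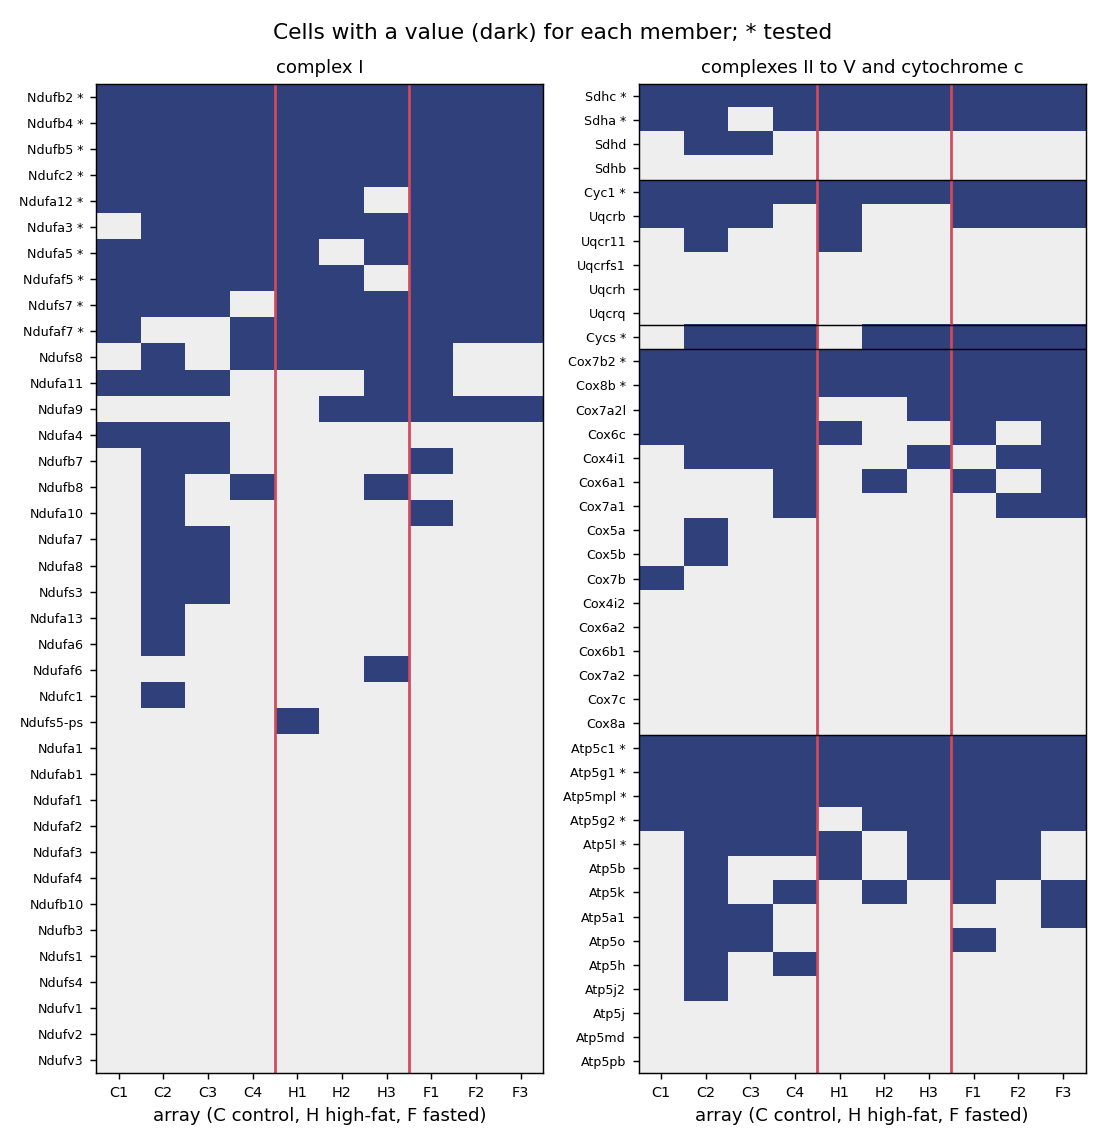
Members in rows and the 10 arrays in columns, with a dark cell where the deposited table holds a value. Complex I is on the left, and complex II, III, cytochrome c, IV and V follow from top to bottom on the right; asterisks mark the 21 tested members, and control array 2 (C2) is filled most often.

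Which cells were filled differed between arrays. On control array 2 a value was present for 56.6% of member rows and 32.2% of all rows, and on the other 9 arrays for 31.3% to 44.4% of member rows and 22.4% to 29.9% of all rows. In all 13 members were filled on control arrays only, 12 of them on control array 2 and 6 of them there alone. These 6 were among 9 members filled on exactly 1 array. Of 1122 symbols filled on exactly 1 array, 401 (35.7%) were on control array 2. The share of all symbols filled on control arrays only was not counted. Ndufa4, a subunit now assigned to complex IV, held 1.39, 2.55 and 1.70 on control arrays 1, 2 and 3 and nothing on any other array. Sources used here give no rule for leaving a cell empty, so an empty cell is not read as a low level.

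Control array 2 also stood apart in level. It held the highest of the control values for 12 of 20 tested members with values to compare (60.0%), against 27.8% of all genes tested. The 10 arrays correlated with each other with r from 0.69 to 0.94, and high-fat array 4 with them with r from -0.03 to 0.01. The spread of ratios within an array (median absolute deviation, scaled as for a normal distribution) was 0.64 to 0.77 on control, 0.39 to 0.58 on high-fat and 0.65 to 0.73 on fasted arrays. Hepatocyte marker genes (11 tested, among them Alb, Apoa1 and Ttr) averaged 1.96 to 3.00 per control array, 1.33 to 1.56 per high-fat array and 1.43 to 1.65 per fasted array. Of the 11, all were lower in high-fat than in control livers, and 3 passed at an adjusted p under 0.05 in limma. Of all 3558 genes tested, 1412 were lower and 1.97% passed as lower. The part of either difference in the results below was not tested beyond the settings with scaled arrays.

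Cyc1, cytochrome c1 of complex III, is 1 of 10 genes placed on 17 rows of the array and so gives a measure of error within an array. On the 10 arrays 11 of its rows held a value at least once, 6 to 11 of them per array. The SD between rows of 1 array was 0.12 to 0.43, the largest on control array 4, where 1 row read -0.09 and another 1.35. Cyc1 was well above the array median on each of the 10 arrays. Its row mean was 1.04, 1.59, 0.96 and 0.83 on the control arrays, 0.56, 0.71 and 1.01 on the high-fat arrays and 0.91, 0.83 and 0.66 on the fasted arrays. The groups overlapped, with control array 2 the highest and high-fat array 1 the lowest. On high-fat array 4 the 8 filled Cyc1 rows ran from -0.67 to 2.42 with an SD of 1.05, so rows of the same gene did not read alike there.

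**Figure D2:**
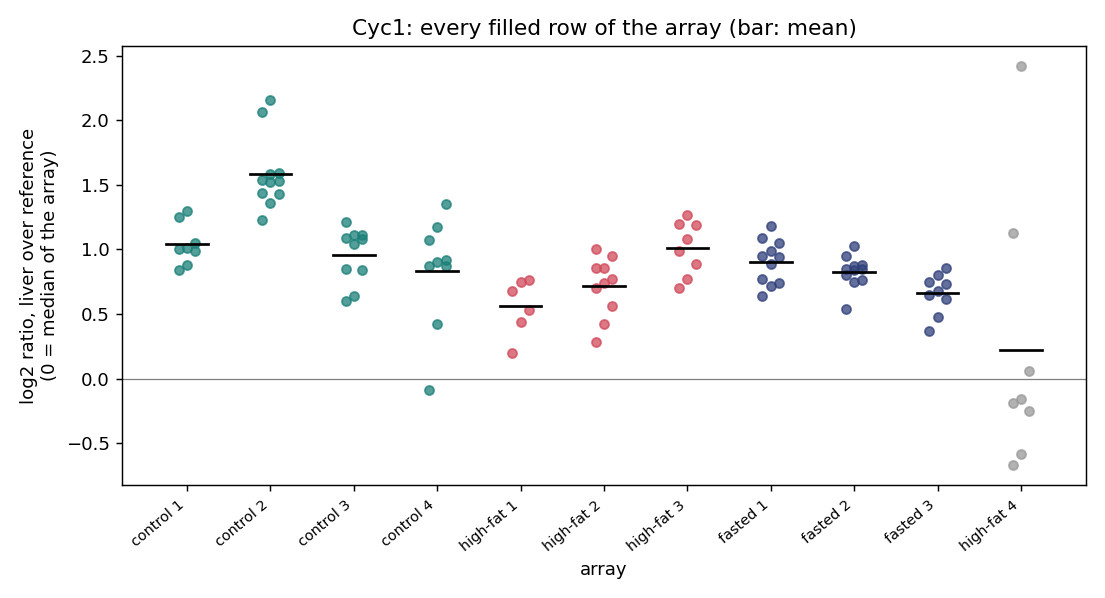
Every filled row of Cyc1 (points) and their mean (bar) on each array, in log2 units of liver over reference with the array median at 0. The SD between rows is 0.12 to 0.43 on the 10 arrays that were used and 1.05 on high-fat array 4, in grey, where rows run from -0.67 to 2.42.

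The change of Cyc1 with the diet was -0.34 ± 0.18 (SE; 95% interval -0.74 to 0.06), with an adjusted p of 0.267 in limma. Fasted minus control gave -0.31 ± 0.18 (SE, adjusted p = 0.372) and fasted minus high-fat 0.04 ± 0.20 (SE, adjusted p = 0.951). Fitted row by row, 10 of 10 testable Cyc1 rows were lower in high-fat than in control livers, from -0.81 to -0.07, and 0 passed (lowest adjusted p = 0.112). These rows share the same mice and are not replicates of the diet. The diet change of the row mean was -0.18 without control array 2 and -0.04 with arrays scaled, and it turned to 0.08 with quantile normalisation.

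The first comparison asks what the high-fat diet changed against chow. None of the 21 tested members passed at an adjusted p under 0.05 (0 rose, 0 fell), where 4.92% of all 3558 genes tested did (2.95% rose, 1.97% fell). At an unadjusted p under 0.05 were 7 of the 21 (33.3%), against 25.2% of all genes. The median change of the 21 was 0.10, with 11 higher and 10 lower, against 0.08 for all genes. It turned to -0.0038 with arrays scaled, -0.18 over the 11 members filled on all 10 arrays and -0.15 with a looser filter. Over 30 single rows, of which Cyc1 fills 10, it was -0.165. The values of high-fat and control arrays did not overlap for 6 members, against 25.4% of all genes. Higher without overlap were 4, Ndufa3, Ndufb4, Ndufs7 and Ndufaf5, all named for complex I (16.7% of all genes were), and lower without overlap 2, Atp5l and Atp5mpl of ATP synthase (8.77% of all genes were).

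The second comparison asks what the 48 h fast changed in mice on the high-fat diet. Again 0 of the 21 rose and 0 fell, where 0.365% of all genes passed (0.0843% rose, 0.281% fell), and 2 members had an unadjusted p under 0.05 (9.52%, against 14.6% of all genes). The median member change was 0.04 with 12 higher and 9 lower, against -0.05 for all genes. Groups did not overlap for 5 members, against 28.8% of all genes. Atp5g1 was lower (17.8% of all genes were), and Ndufa12, Ndufaf5, Ndufaf7 and Atp5mpl were higher (11.1% of all genes were).

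Fasted livers on the high-fat diet were also set against chow-fed controls, a comparison in which diet and fast change together. Here 1 of the 21 rose, the complex I assembly factor Ndufaf5, and 0 fell, where 3.2% of all genes passed (2.16% rose, 1.04% fell). No subunit passed. The median member change was 0.15 with 12 higher and 9 lower, against 0.01 for all genes (0.015 before rounding). It turned to -0.0325 without control array 1, and to -0.069, -0.037 and -0.15 with the filters and single rows that turned the diet median. At an unadjusted p under 0.05 were 9 members (42.9%), against 20.4% of all genes, and 8 did not overlap between groups, against 22.2% of all genes. Of these 8, Ndufa3, Ndufs7, Ndufaf5, Ndufaf7 and Cox8b were higher (12.6% of all genes were) and Ndufb5, Atp5g1 and Atp5l lower (9.58% of all genes were). Some markers of liver cell types passed here too. Of 2 tested markers of macrophages, Cd163 rose by 0.66 (adjusted p = 0.0487), while C1qc changed by 0.17 (adjusted p = 0.604). Of 2 of endothelial cells, Kdr rose by 0.90 (adjusted p = 0.0181), while Tie1 went the other way, by -0.09 (adjusted p = 0.892). Of 11 of hepatocytes, 3 fell. The 3 tested markers of lymphocytes, 4 of stellate cells, 1 of bile duct and 1 of fat did not pass in any comparison, and the 3 red cell markers on the array held no value. Their part in the member values was not tested. The 3 comparisons share arrays in pairs, so their counts are not independent of each other.

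**Figure D3:**
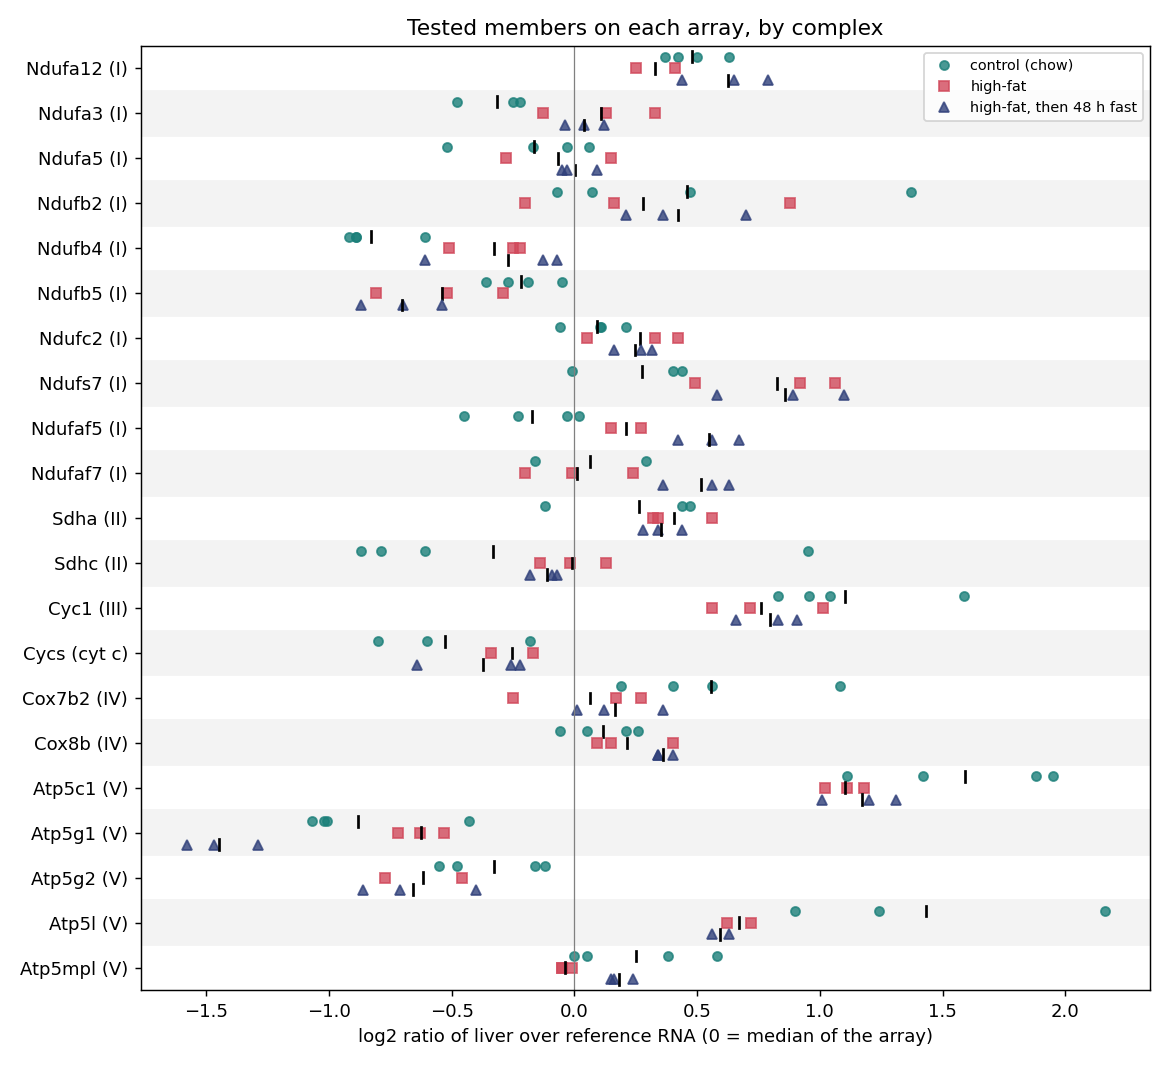
Each tested member on each of the 10 arrays, with its complex in brackets (symbols are single mice, black ticks are group means); the horizontal axis gives log2 of liver over reference with the array median at 0. Fasted livers lie to the left of all others for Atp5g1 and to the right of all others for Ndufaf5, and the control arrays of Sdhc split into 3 low values and 1 at 0.95.

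Ndufaf5 hydroxylates an arginine of the complex I subunit Ndufs7 while the complex is being built. Its ratio was 0.02, -0.23, -0.45 and -0.03 on the control arrays, 0.27 and 0.15 on high-fat arrays 1 and 2, and 0.67, 0.56 and 0.42 on the fasted arrays. High-fat array 3 held no value. The 3 groups did not overlap, with control lowest and fasted highest. The change from control to fasted was 0.72 ± 0.14 (SE; 95% interval 0.41 to 1.04), or 1.65-fold, with an adjusted p of 0.0276. The change with the diet was 0.38 ± 0.16 (SE, adjusted p = 0.171) and that with the fast 0.34 ± 0.17 (SE, adjusted p = 0.377), both short of the threshold. By an F test over the 3 groups Ndufaf5 and Atp5g1 passed, 2 of 21 members with an adjusted p of 0.0402 each, where 5.71% of all genes did. The call of Ndufaf5 held under 14 of 18 other settings, with adjusted p from 0.00948 to 0.101. It was lost without fasted array 1 (0.0933) or fasted array 2 (0.101), with all 11 arrays (0.0715) and with arrays scaled to a common spread (0.0747). Without high-fat array 1 or 2 the gene had too few values for a test.

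The second assembly factor, Ndufaf7, is a methyltransferase that acts in the assembly of complex I. It read -0.16 and 0.29 on control arrays 1 and 4, -0.01, 0.24 and -0.20 on the high-fat arrays, and 0.56, 0.36 and 0.63 on the fasted arrays. The fasted values lay above all others, and the control and high-fat values overlapped. The change with the fast was 0.51 ± 0.17 (SE; 95% interval 0.12 to 0.89), the highest of the 21 members in that comparison, with an adjusted p of 0.238.

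Among the 8 tested subunits of complex I, the electron-carrying core was represented only by Ndufs7, which holds the iron-sulfur cluster next to the ubiquinone site. Ndufs7 read -0.01, 0.44 and 0.40 on control arrays 1 to 3, 0.49, 1.06 and 0.92 on the high-fat arrays and 1.10, 0.89 and 0.58 on the fasted arrays. Both high-fat groups lay above control without overlap, and they overlapped with each other. The diet change was 0.55 ± 0.20 (SE; 95% interval 0.11 to 0.98, adjusted p = 0.121). It passed with arrays scaled (0.77, adjusted p = 0.0424) and with quantile normalisation (0.87, adjusted p = 0.0334), in a range over all settings of 0.0334 to 0.320.

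Accessory subunits of the membrane arm of complex I went both ways. Ndufb4 was -0.89, -0.89, -0.92 and -0.61 on the control arrays, -0.25, -0.22 and -0.51 on the high-fat arrays and -0.61, -0.13 and -0.07 on the fasted arrays. High-fat lay above control, and fasted array 1 reached down to the highest control. Its change was 0.50 ± 0.16 (SE, adjusted p = 0.0796) with the diet and 0.56 ± 0.16 (SE, adjusted p = 0.0763) from control to fasted, which passed only with values as deposited (0.74, adjusted p = 0.0273, in a range up to 0.224).

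Ndufb5 went the other way. It read -0.27, -0.05, -0.19 and -0.36 on the control arrays, -0.29, -0.52 and -0.81 on the high-fat arrays and -0.70, -0.54 and -0.87 on the fasted arrays. All fasted arrays were below all control arrays, and the high-fat arrays overlapped both groups. The change from control to fasted was -0.49 ± 0.15 (SE; 95% interval -0.81 to -0.16), with an adjusted p of 0.0970.

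Of the other accessory subunits, Ndufa3 had a mean of -0.32 ± 0.14 (SD, n = 3) in control, 0.11 ± 0.23 (n = 3) in high-fat and 0.04 ± 0.08 (n = 3) in fasted livers. The changes from control were 0.43 (adjusted p = 0.112) and 0.36 (adjusted p = 0.213). Ndufc2, averaged over 2 rows of which 1 was filled on 4 of the 10 arrays, Ndufa5, Ndufa12 and Ndufb2 had changes between -0.18 and 0.30 in the 3 comparisons. Their adjusted p was 0.392 or more. Ndufb2 was the most variable of them, from -0.07 to 1.37 within the control arrays, so its 95% interval for the diet change ran from -0.89 to 0.53.

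Complex II was represented by Sdha, which binds succinate and carries the flavin, and by Sdhc, which anchors the enzyme in the membrane. Sdha averaged 0.26 ± 0.33 (SD, n = 3) in control, 0.41 ± 0.13 (n = 3) in high-fat and 0.35 ± 0.08 (n = 3) in fasted livers, with adjusted p of 0.646 or more in each comparison. Sdhc read -0.87, 0.95, -0.61 and -0.79 on the control arrays, -0.14, -0.02 and 0.13 on the high-fat arrays and -0.18, -0.07 and -0.09 on the fasted arrays. Control array 2 stood above all other arrays and the remaining control arrays below them all. With all 10 arrays its diet change was 0.32 ± 0.35 (SE; 95% interval -0.44 to 1.08, adjusted p = 0.608). Without control array 2 Sdhc passed, at 0.75 with the diet (adjusted p = 0.0128, in a range up to 0.841) and at 0.64 from control to fasted (adjusted p = 0.0255, in a range up to 0.964).

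Cycs, the soluble cytochrome c that links complexes III and IV, averaged -0.53 ± 0.32 (SD, n = 3) in control, -0.26 ± 0.12 (n = 2) in high-fat and -0.37 ± 0.23 (n = 3) in fasted livers. These overlapped, with adjusted p of 0.457 or more. In complex IV only isoforms named for other tissues were testable. Cox7b2, known from testis, averaged 0.56 ± 0.38 (SD, n = 4) in control, 0.06 ± 0.28 (n = 3) in high-fat and 0.16 ± 0.18 (n = 3) in fasted livers, a diet change of -0.49 ± 0.20 (SE, adjusted p = 0.160) that was -0.32 without control array 2. Cox8b, known from heart and skeletal muscle, averaged 0.12 ± 0.15 (SD, n = 4), 0.21 ± 0.16 (n = 3) and 0.36 ± 0.03 (n = 3), and its fasted arrays lay above all control arrays (change 0.24 ± 0.13 SE, adjusted p = 0.301). Of 10 other markers of muscle and brown fat on the array, 2 held a value, each on 1 of the 10 arrays.

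The 5 tested members of ATP synthase were Atp5c1, the gamma subunit of the rotating shaft, Atp5g1 and Atp5g2, which encode the c subunit of the proton-driven ring, Atp5l, subunit g, and Atp5mpl, a small proteolipid. All 5 were lower in fasted than in control livers, from -0.84 to -0.07 with a median of -0.42, though 0 passed. Of all 3558 genes tested, 1707 were lower in that comparison, with a median of 0.015. The 5 were read on the same arrays, so their directions are not independent of each other. Atp5mpl turned to 0.11 with values as deposited and also turned without control array 2. With the diet 4 of 5 were lower, with a median of -0.29, where 1412 of the 3558 genes were lower, with a median of 0.08. Atp5c1 turned to 0.02 with quantile normalisation, Atp5g2 to 0.01 with all 11 arrays and the higher Atp5g1 to -0.01 with arrays scaled. With the fast 3 were lower and 2 higher, with a median of -0.04, where 2012 of the 3558 genes were lower, with a median of -0.05. Atp5c1 and Atp5g2 changed sign under both scaling settings.

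Atp5g1 had the largest change of any member with the fast. It read -1.07, -0.43, -1.02 and -1.01 on the control arrays, -0.72, -0.63 and -0.53 on the high-fat arrays and -1.58, -1.29 and -1.47 on the fasted arrays. The fasted arrays lay below all others, and control array 2 stood above the high-fat arrays while the other control arrays stood below them. From high-fat to fasted the change was -0.82 ± 0.18 (SE; 95% interval -1.20 to -0.44), a 1.77-fold lower ratio, with an adjusted p of 0.0728. The change was -0.49 with arrays scaled (adjusted p = 0.476) and -0.51 with quantile normalisation (adjusted p = 0.398). It passed without control array 2 (0.0117) and with only the 2 groups of the comparison in the fit (0.0257), in a range over all settings of 0.0117 to 0.476. From control to fasted it was -0.56 ± 0.16 (SE, adjusted p = 0.0849).

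Atp5g2, a second gene for the same c subunit, had a change of -0.04 ± 0.20 (SE; 95% interval -0.48 to 0.39, adjusted p = 0.946) with the fast. Within an array, Atp5g1 minus Atp5g2 was -0.59, -0.27, -0.90 and -0.46 on the control arrays, 0.14 and -0.07 on high-fat arrays 2 and 3, and -0.87, -0.89 and -0.61 on the fasted arrays. The high-fat pair lay above the rest; this difference was picked after its values were seen and carries no test. The mature proteins of these genes are alike, and whether the array's spots tell the genes apart was not tested.

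Atp5c1 lay above the array median on all 10 arrays. It read 1.11, 1.42, 1.95 and 1.88 on the control arrays, 1.11, 1.18 and 1.02 on the high-fat arrays and 1.01, 1.20 and 1.31 on the fasted arrays. The lowest control array lay within the range of the others. Its diet change was -0.49 ± 0.19 (SE, adjusted p = 0.142), and -0.02 with arrays scaled. Atp5l read 2.16, 1.24 and 0.90 on control arrays 2 to 4, 0.62 and 0.72 on high-fat arrays 1 and 3, and 0.56 and 0.63 on fasted arrays 1 and 2. The control arrays lay above all others. Its changes of -0.76 ± 0.32 (SE) with the diet and -0.84 ± 0.32 (SE) from control to fasted had adjusted p of 0.171 and 0.178. Without control array 2 they were -0.40 and -0.47 (-0.475 before rounding), and the diet change was -0.34 with arrays scaled and -0.18 with quantile normalisation.

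Atp5mpl averaged 0.25 ± 0.28 (SD, n = 4) in control, -0.04 ± 0.02 (n = 3) in high-fat and 0.18 ± 0.05 (n = 3) in fasted livers. Its high-fat arrays lay below all others, with a diet change of -0.29 ± 0.15 (SE, adjusted p = 0.245). Atp5g2 averaged -0.33 ± 0.22 (SD, n = 4), -0.62 ± 0.22 (n = 2) and -0.66 ± 0.23 (n = 3), with overlapping arrays.

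**Figure D4:**
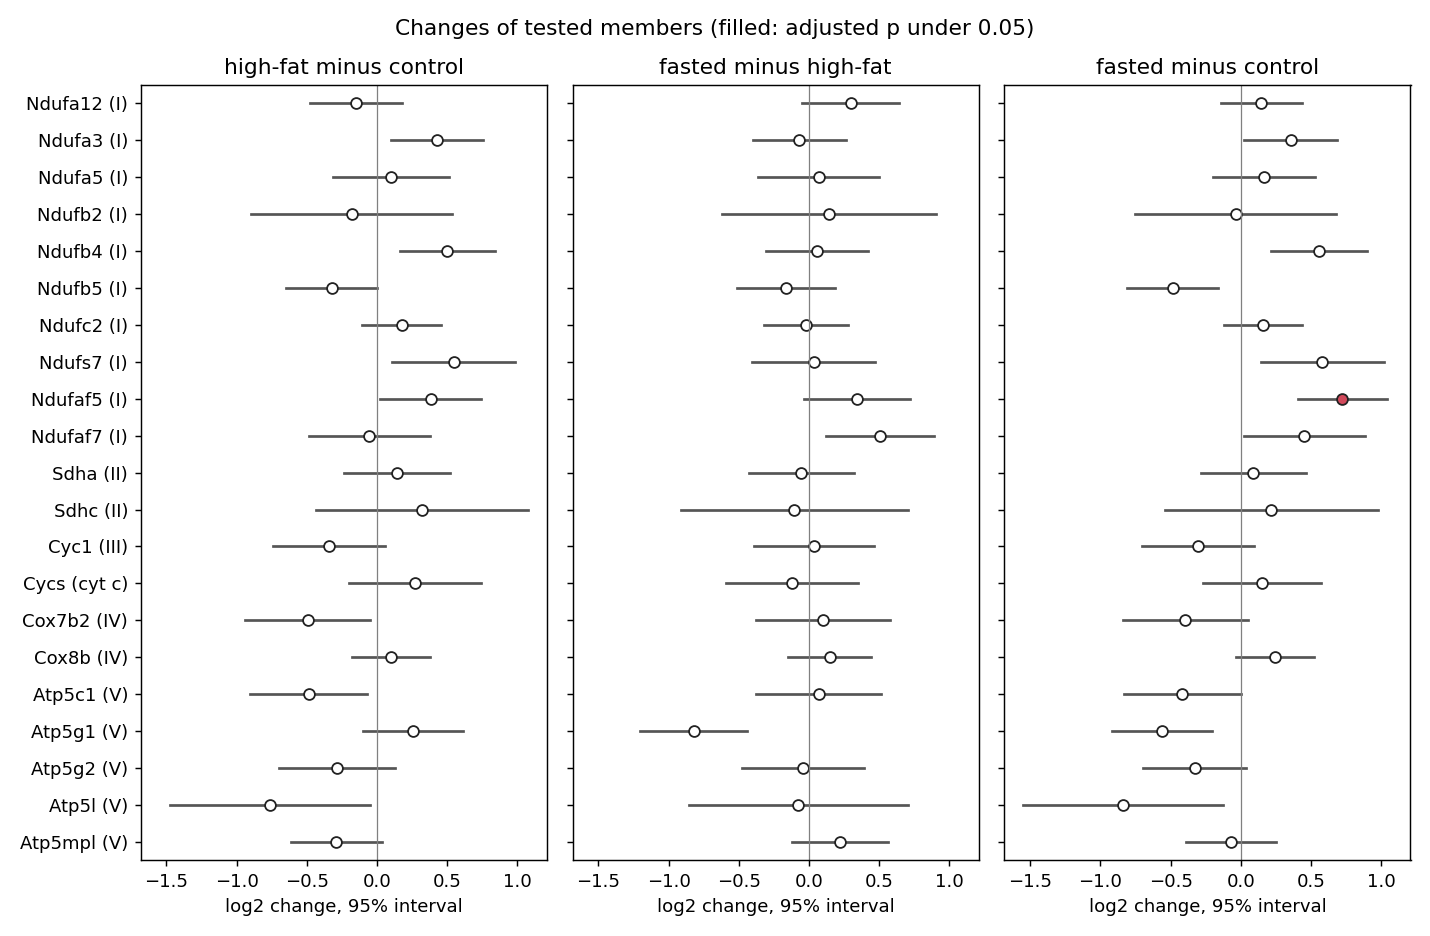
Log2 change of each tested member in the 3 comparisons (points) with its 95% interval (lines), ordered by complex, given in brackets. The only filled point, for an adjusted p under 0.05, is Ndufaf5 in fasted minus control, and most intervals include 0.

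Across the 21 members the diet change went down as the mean ratio over the 3 groups went up, with a slope of -0.29 and r of -0.44. For all genes the slope was -0.22 with r of -0.40. Of 13 members with a mean ratio above 0, 8 were lower in high-fat than in control livers, and of 8 members below 0, 6 were higher. Among all genes tested, 1027 of 1819 above 0 were lower and 1354 of 1739 below 0 were higher, so the members went much as all genes did. Once arrays were scaled to 1 spread the slope became 0.04 over members and 0.12 over all genes. These are descriptions across genes measured on the same arrays. Scaling turned the sign of the diet change for 1 of 21 members and quantile normalisation for 4, and for the fast the counts were 5 and 5.

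Genes around the respiratory chain gave 1 call among 46 tested with the diet, where 4.92% of all genes were called, and 0 in the other comparisons. Mrpl21, of the mitochondrial ribosome that makes the mitochondrially encoded subunits, rose with the diet by 0.64 ± 0.15 (SE, adjusted p = 0.0432), from a mean of -1.19 to -0.54. It was 1 of 21 tested genes of that ribosome, whose median change was 0.14 with the diet and -0.12 with the fast. Among 6 other assembly factors, 6 carriers and uncouplers of the inner membrane, 4 regulators of mitochondrial biogenesis (Nrf1 and Gabpa among them) and 6 genes of the tricarboxylic acid cycle, 0 rose and 0 fell in any comparison. Medians with the diet were 0.09, 0.00, 0.18 and -0.06, and with the fast -0.09, -0.09, -0.06 and 0.23, in that order. Electron donors to ubiquinone, import genes and antioxidants had 1 tested gene each, none of which passed.

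Nuclear genes of the respiratory chain are known to be driven in part by the factors NRF1 and GABP, of which the latter belongs to the ETS family. RefSeq promoters of build GRCm38.p6 were matched for 66 of the 79 members, in 70 windows of 250 bases before a gene start. The NRF1 motif (GCGCA, then any base, then GCGC), searched like the others on both strands, was in 13 of the 70 windows (18.6%), against 3.74% of all 32851 windows. The ETS core CCGGAAG was in 15.7% against 6.91%, and the motif AAGGTCA of estrogen-related receptors in 4.29% against 4.08%. Among 20 windows of 18 tested members the NRF1 motif was in 6, the ETS core in 1 and the receptor motif in 3. A match is a description of the letters and not a bound site.

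The windows of the 3 members with the smallest F-test p-values (Ndufaf5, Atp5g1 and Ndufb4), and of Atp5g2 as the second gene of the c subunit, are shown with matches in capitals, 5′ to 3′ on the strand of the gene. Ndufaf5 lies on the plus strand at chr2:140170396-140170645, Ndufb4 on the minus strand at chr16:37654369-37654618, Atp5g1 on the minus strand at chr11:96075632-96075881 and Atp5g2 on the minus strand at chr15:102671048-102671297. Ndufb4 holds 3 NRF1 matches, which end 181, 69 and 12 bases before the start, and 1 receptor motif, 48 bases before it. Atp5g2 holds 1 NRF1 match, which ends 32 bases before the start. The windows of Atp5g1 and Ndufaf5 hold none of the 3 motifs, so the gene pair for the c subunit differs in these letters.
Ndufaf5: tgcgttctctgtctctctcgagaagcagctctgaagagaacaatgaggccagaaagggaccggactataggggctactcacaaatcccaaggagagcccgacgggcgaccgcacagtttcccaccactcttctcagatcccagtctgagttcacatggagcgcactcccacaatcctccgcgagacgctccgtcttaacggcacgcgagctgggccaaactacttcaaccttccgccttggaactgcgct
Ndufb4: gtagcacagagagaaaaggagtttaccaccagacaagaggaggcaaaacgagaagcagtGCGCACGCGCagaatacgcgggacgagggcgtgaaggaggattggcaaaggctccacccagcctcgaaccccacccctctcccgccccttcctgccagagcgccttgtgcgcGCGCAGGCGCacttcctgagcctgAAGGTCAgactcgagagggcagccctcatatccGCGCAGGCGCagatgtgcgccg
Atp5g1: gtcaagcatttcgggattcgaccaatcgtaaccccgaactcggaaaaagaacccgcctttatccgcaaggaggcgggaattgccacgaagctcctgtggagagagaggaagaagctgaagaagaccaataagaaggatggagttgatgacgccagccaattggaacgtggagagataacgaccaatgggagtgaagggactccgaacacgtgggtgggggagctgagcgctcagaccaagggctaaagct
Atp5g2: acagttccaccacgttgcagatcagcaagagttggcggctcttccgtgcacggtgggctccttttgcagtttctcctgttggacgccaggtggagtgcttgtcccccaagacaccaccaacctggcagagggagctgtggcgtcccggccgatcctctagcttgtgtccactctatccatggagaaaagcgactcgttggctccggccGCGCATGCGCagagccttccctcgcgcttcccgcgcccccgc

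Of the 32 members with some values but too few for the main test, the 9 filled on at least 5 of the 10 arrays are described mainly by their values. The looser filter (1 value in every group, 5 in all) fitted all of them but Ndufa9, each with only 1 value in some group. Their diet changes there ran from -1.29 for Cox6c to 0.38 for Atp5b. With so few values, arrays that lie apart are not a result about a group. The share of all genes that lay apart in this way was not counted. Cox6c, a subunit of complex IV, read 1.21, 2.40, 1.57 and 0.94 on the control arrays, 0.24 on high-fat array 1 and -0.05 and 0.60 on fasted arrays 1 and 3, so all control arrays lay above the 3 others. Ndufs8, an iron-sulfur subunit of complex I, read -0.22 and -0.94 on control arrays 2 and 4, -1.39, -1.39 and -1.0 on the high-fat arrays and -2.10 on fasted array 1. Cox7a2l, the supercomplex factor, was filled on 8 arrays and lay between 0.32 and 0.65, with no group apart. Cox4i1, the main form of the largest nuclear-encoded subunit of complex IV, read 2.17, 1.39 and 1.26 on control arrays 2 to 4, 0.79 on high-fat array 3 and 1.53 and 1.46 on fasted arrays 2 and 3. Uqcrb, a subunit of complex III, lay between 0.15 and 0.69 on the 7 arrays where it was filled. Atp5b, the catalytic beta subunit of ATP synthase, lay between -0.82 and 0.00 on 5 arrays. Atp5k, subunit e of ATP synthase, read 1.05 and 0.04 on control arrays 2 and 4, -0.63 on high-fat array 2 and -0.33 and -0.16 on fasted arrays 1 and 3. Ndufa11 of complex I read -0.25, 1.33 and 0.31 on control arrays 1 to 3, -0.52 on high-fat array 3 and -0.61 on fasted array 1. In both the control arrays lay above the others. Ndufa9, an accessory subunit of complex I, was filled on 5 high-fat and fasted arrays, from -0.14 to 0.88, and on no control array.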

How the data were processed

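Per the labels, liver RNA (Cy5) and a universal mouse reference RNA (Cy3) were hybridised together, 1 array per mouse. The deposited values are log ratios, taken as log2. Sources used here do not give the logarithm's base, background correction, normalisation or the rule for empty cells; another base would multiply all changes by 1 factor. The platform's table gave 1 symbol for 14718 rows and not for 2562, which stayed separate. All 79 members matched the RefSeq gene table by identifier, and 0 symbols differed. No genome build belongs to the array, so gene positions are given only for RefSeq promoters.

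Each array was centred on its median, and rows of 1 symbol were averaged. Genes with at least 2 values in every group (3558) were fitted by limma (version 3.58.1, R 4.3.3) as group means sharing 1 spread over the 10 arrays. Of these 3558, 3169 have 1 symbol. The rest are rows without a single symbol, which are counted among all genes throughout. Tests were two-sided, with Benjamini-Hochberg adjustment within a comparison over all genes tested and a threshold of 0.05. The script was tested on simulated data. Spot brightness was not used here, and precision is limited by how many arrays there are.

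High-fat array 4 was left out because it does not correlate with the others; results with it stand beside the main ones. The members, lists and the removal of this array were chosen with earlier results of these data known. Members were named where called, where among the 4 smallest F-test p-values of a complex, where highest or lowest in a comparison, or where several rows were filled; a few others were named after their values were seen. The lists were hepatocyte, macrophage, lymphocyte, endothelial, stellate, bile duct, red cell, adipose and muscle markers and 8 lists of mitochondrial genes.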

Additional observations from a re-analysis of the deposited data

Results flagged for a closer look

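Among the 4 control arrays, 15 tested members and 3 medians were examined for 1 array far from the rest, by Dixon's test at the 95% level. In 3 of the 18 the gap was too wide, where chance gives about 1 in 20 for independent values. The 18 share the same 4 arrays and are not independent, and the share over all genes was not counted. The 3 are therefore not read as an excess among members. Sdhc stood at 0.95 on control array 2, with the remaining control values from -0.87 to -0.61. Atp5g1 stood at -0.43 on control array 2, against -1.07 to -1.01. Ndufb4 stood at -0.61 on control array 4, against -0.92 to -0.89. The calls of Sdhc and Atp5g1 without control array 2 are given with these genes above.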

How the results depend on the processing

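With each array left out in turn, genes called ran from 22 to 190 for high-fat minus control, from 3 to 23 for fasted minus high-fat and from 5 to 157 for fasted minus control, and members called from 0 to 1, 0 to 1 and 0 to 2. Member medians ran from 0.04 to 0.16, from -0.04 to 0.08 and from -0.0325 to 0.19. With all 11 arrays 3 genes were called for the fast and 25 for fasted minus control, with 0 members. With only 2 groups in a fit the counts were 23, 53 and 57, with 1 member for the fast. Values as deposited gave 86 genes for the diet and 198 for fasted minus control with 2 members, and member medians of 0.24 for the fast and 0.34 for fasted minus control, where the median of all genes was 0.16 and 0.21. With arrays scaled, 10 genes and 0 members were called for fasted minus control and 1 member for the diet, and with quantile normalisation 24 genes for the fast and 1 member for the diet. Requiring a value on all 10 arrays left 11 members, with 7 genes called for the fast, 0 members called for fasted minus control and medians of -0.18 for the diet and -0.069 for fasted minus control. A looser filter (1 value in every group, 5 in all) gave 5 genes for the fast and medians of -0.15 and -0.037 over 29 members, and each row by itself medians of -0.165 and -0.15 over 30 rows, of which Cyc1 fills 10. Among the 19 subunits alone 0 were called for fasted minus control. The cause of these shifts was not tested. Some settings leave fewer genes or arrays, while others, such as scaled arrays or values as deposited, keep the same 3558 genes and 10 arrays.

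Equal mouse numbers in the labels mark different mice, so they were not used as a pairing in the main fit. Deviations correlated above 0.1 in 3 of 9 same-numbered pairs of arrays (-0.17 to 0.15). These 3 were the pairs among the arrays numbered 1 (r = 0.12, 0.15 and 0.13). Differently numbered pairs ran from -0.22 to 0.24. Whether arrays of 1 number were handled together was not tested. With the replicate number as a block, 116 genes were called for the diet and 4 for the fast. Of the 63 member changes, 37 kept their sign under all settings that could test them, and 6 passed under at least 1 of them.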

Other observations

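The tested genes of complex IV were both isoforms known from other tissues; 8 other genes named for the complex held values on 1 to 8 arrays. Cox8b of heart and muscle and Cox7b2 of testis held values on 10 of 10 arrays. Their widely expressed counterparts Cox8a and Cox7b held values on 0 and 1. The DNA in these spots was not checked against the gene sequences.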
